A study of Homo sapiens with 6 samples.

Results

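The ubiquitin-conjugating (E2) enzymes were described in ARPE-19 cells, an established line of human cells from the retinal pigment epithelium, after knockdown of the translation initiation factor EIF1. The members were all protein-coding genes of the count table whose symbol begins with UBE2 and a further letter, without UBE2C and UBE2S, the E2 pair of the anaphase-promoting complex (APC/C). This rule, which uses symbols and no measured value, found 34 genes among 30618 genes in the table, of which 16578 were protein-coding. Enough reads for a test were present for 31 of the 34 members, among 16749 genes tested.

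Cells of both groups were kept in 50 mM glucose. The control group received a non-targeting siRNA (NC) and the other group an siRNA against EIF1 (siEIF1), with 3 independently prepared biological replicates each and mRNA sequenced from all 6 libraries in 1 run. The study asked what loss of EIF1 does to the transcriptome under high glucose. The knockdown rests on 1 cell line and 1 siRNA sequence, no library without high glucose was analysed here, and the counts and FPKM values give no protein level or enzyme activity of the UBE2 members.

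Ubiquitin is attached to proteins by a relay in which an E1 enzyme activates it, an E2 enzyme carries it on a catalytic cysteine, and an E3 ligase brings the loaded E2 to the substrate. The E2 enzymes help to set the type of chain that is built, and with it the fate of the substrate, from degradation by the proteasome to signalling or DNA repair. Some members of the family carry relatives of ubiquitin instead, such as NEDD8 or ISG15, and some have lost the cysteine and act as partners of another E2. In the retinal pigment epithelium, which takes up and degrades photoreceptor material throughout life, ubiquitin-dependent turnover is part of protein quality control.

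The libraries held 26499929 to 31431479 counts. EIF1 was at 1305, 1254 and 1227 CPM (counts scaled to a common library total) in the NC libraries and at 109, 104 and 103 CPM in the siEIF1 libraries, a log2 fold change of -3.58 (SE 0.0549, edgeR adjusted p = 1.08e-13). Of 13 marker genes of the retinal pigment epithelium, 11 were in the count table and 4 (BEST1, MITF, OTX2 and SERPINF1) were above 1 FPKM in every library, whereas TYR and DCT had at most 4 counts and RPE65 and TTR were not among the genes of the table. FPKM values are fragment counts scaled by the length of the gene and by the mapped fragments of the library. The summed level of this list was 87.6 to 97.2 FPKM in NC and 66.6 to 90.1 FPKM in siEIF1, with overlapping ranges. Most of it was BEST1, at 38.8 to 70.8 FPKM over all 6 libraries, whereas OTX2 was at 17.5 to 19.2 FPKM and MITF at 5.46 to 5.89 FPKM. The sum of the epithelial keratins KRT8 and KRT18 was 426 to 450 FPKM in NC and 499 to 522 FPKM in siEIF1. That of the fibroblast-like list, almost all of it VIM, was 822 to 846 and 994 to 1058 FPKM. Summed markers of endothelium, leukocytes and photoreceptors stayed at or below 1.01 FPKM in every library. The part of these shifts in the results below was not tested, and in bulk RNA fewer cells of a kind and less RNA per cell cannot be told apart.

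In many members the catalytic cysteine lies in a short stretch of shared sequence. In the canonical transcripts of 17 of the 34 members (GENCODE 44, GRCh38), codons for histidine, proline and asparagine were followed by 7 codons and then by a cysteine codon. The spacing was not found in UBE2V1 and UBE2V2, the cysteine-less variants, nor in UBE2E1, UBE2E2, UBE2E3, UBE2F-SCLY, UBE2H, UBE2J1, UBE2J2, UBE2K, UBE2O, UBE2Q1, UBE2Q2, UBE2QL1, UBE2U, UBE2W and UBE2Z, some of which carry their cysteine in another context. The stretch is shown for UBE2T, UBE2M and UBE2L3, whose lower calls held under every alternative setting run, and for UBE2A, UBE2B, UBE2L6, UBE2D2 and UBE2D3, which are compared with a close relative below. Each run is 30 bases of the coding strand, 5′ to 3′, from the proline codon, and the capitals mark the cysteine codon.
UBE2T: ccaaacattgattctgctggaaggattTGT
UBE2M: cccaacattgacctcgagggcaacgtcTGC
UBE2L3: ccaaacatcgacgaaaaggggcaggtcTGT
UBE2L6: cccaacgtggacgagaacggacagattTGC
UBE2A: ccaaatgtctatgcagatggtagtataTGT
UBE2B: ccaaatgtgtatgctgatggtagcataTGT
UBE2D2 and UBE2D3: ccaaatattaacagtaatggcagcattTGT

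The UBE2T run lies at chr1:202333477-202333506 on the reverse strand, in exon 4 of 7 of the canonical transcript. The UBE2M run lies at chr19:58556701-58556730 on the reverse strand, in exon 4 of 6. UBE2L3 has its run at chr22:21610962-21610991 on the forward strand and UBE2L6 at chr11:57554489-57554518 on the reverse strand, both in exon 3 of 4. The runs of UBE2A and UBE2B differed at 3 of 30 bases and span an exon junction, with the UBE2A cysteine codon at chrX:119582608-119582610. UBE2D2 and UBE2D3 shared the run without a difference, and over their whole coding sequences of 441 bases they were 86.6% identical with a longest identical stretch of 80 bases, below the read length of 150 nt. The other pairs of UBE2D1 to UBE2D4 were 77.1% to 78.5% identical, with identical stretches of at most 20 bases. UBE2L3 and UBE2L5 were 97.6% identical over 462 bases, with a longest identical stretch of 76 bases, also below the read length. UBE2L5 had 0 or 1 count per library. The placement of reads between such near-identical members was not tested.

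By level per length, the members spanned a wide range in NC cells. UBE2D2, an initiator of ubiquitin transfer that works with many E3 ligases, was the highest at 33.19, 30.19 and 33.31 FPKM in NC and 29.38, 28.05 and 29.30 FPKM in siEIF1. Its near-identical relative UBE2D3 was at 31.77, 29.87 and 28.97 FPKM in NC and 29.58, 28.13 and 28.83 FPKM in siEIF1. UBE2E1, an initiator with an extended N-terminus, followed at 30.49, 28.88 and 28.99 FPKM in NC and 26.57, 26.14 and 25.21 FPKM in siEIF1. UBE2M, the main E2 of NEDD8, was at 30.71, 28.46 and 28.78 FPKM in NC and 24.52, 23.17 and 22.92 FPKM in siEIF1. In NC the ranges of these 4 genes overlapped one another, so that their order was not resolved, whereas in siEIF1 all libraries of UBE2D2 and UBE2D3 were above those of UBE2E1, and those of UBE2E1 above those of UBE2M.

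Next in order of the mean over all libraries were UBE2Z, UBE2V1, UBE2R2, UBE2E3, UBE2J1 and UBE2L3, between 20.2 and 25.6 FPKM. UBE2H, UBE2B, UBE2Q1, UBE2L6, UBE2J2, UBE2K, UBE2G2 and UBE2Q2 lay between 10.3 and 19.7 FPKM. UBE2N, UBE2A, UBE2E2, UBE2G1, UBE2V2, UBE2F, UBE2D4 and UBE2D1 lay between 5.21 and 9.93 FPKM. The lowest tested members were UBE2F-SCLY at 3.30, UBE2T at 3.08, UBE2O at 2.83 and UBE2W at 2.22 FPKM. The 3 members without a test were UBE2QL1 with 0 or 1 count per library, UBE2L5 with 0 or 1 count, and UBE2U with 2 to 9 counts.

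**Figure D1:**
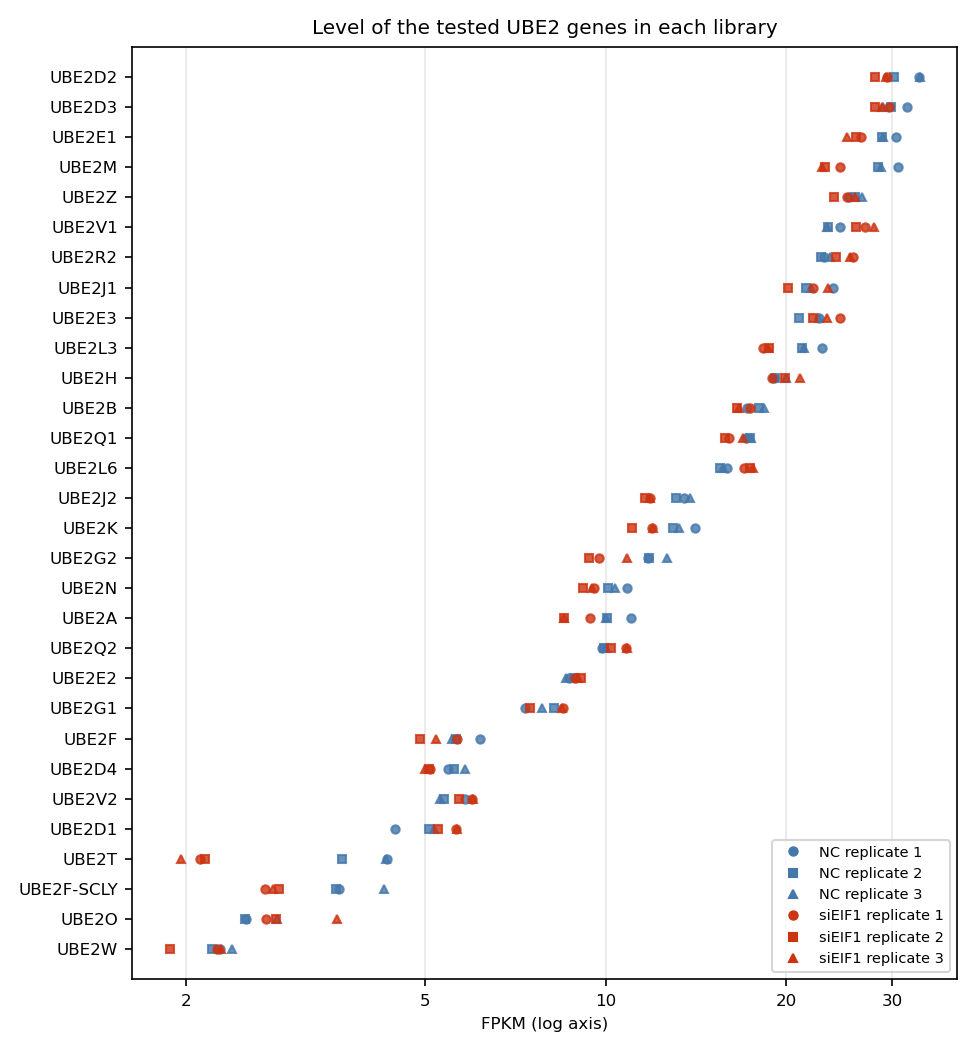
Level of 30 of the 31 tested UBE2 genes in each of the 6 libraries, in FPKM on a log axis, ordered by the NC mean, with NC in blue and siEIF1 in red and 1 marker shape per replicate number. The NC means run from UBE2D2 at 32.2 FPKM to UBE2W at 2.29 FPKM, and the symbols of most genes lie close together compared with this range, except for UBE2T, whose siEIF1 libraries lie at 1.96 to 2.15 FPKM below NC libraries at 3.64 to 4.32 FPKM.

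The summed level of the family was 472, 453 and 465 FPKM in NC and 445, 427 and 447 FPKM in siEIF1, so that the siEIF1 libraries lay below the NC libraries without overlap. As a share of all FPKM in the library this was 0.165% to 0.170% in NC and 0.154% to 0.162% in siEIF1. The 4 leading genes made up 25.1% to 26.7% of the family's sum in every library.

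Of the 31 tested members, 3 rose and 10 fell in siEIF1 at an adjusted p under 0.05 (quasi-likelihood test of edgeR, p-values adjusted by the Benjamini-Hochberg method across all genes tested), and 18 did not pass. Among all 16749 genes tested, 10.2% were called higher and 10.4% lower, 20.6% in either direction. The members have more reads than most genes, and among the 10543 genes within their range of mean counts 13.5% were called higher and 13.3% lower. The 3 higher members thus lie near the background share and the 10 lower members above it. The changes were small: the median log2 fold change was -0.07 over the members, against 0.00 over all genes. The median size without sign was 0.14 for the members, 0.15 for all genes and 0.12 for the genes within the members' range of mean counts. No member passed the study's limits, which ask in addition for a fold above 2 or under 0.5. The counts were 0 higher and 0 lower in edgeR and also in DESeq2. These limits were passed in edgeR by 0.4% of all genes in the higher and 1.31% in the lower direction. At an unadjusted edgeR p under 0.05 without a fold limit 7 members were higher and 13 lower, but the share of all genes at that limit was not counted. All siEIF1 libraries lay above all NC libraries in CPM for 7 members and below them for 14 members, against 18.2% and 18.9% of all genes tested. UBE2L6 was the member just inside the limit, at an adjusted p of 0.0468, and UBE2D2 the member just outside it, at 0.0658 (both edgeR).

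**Figure D2:**
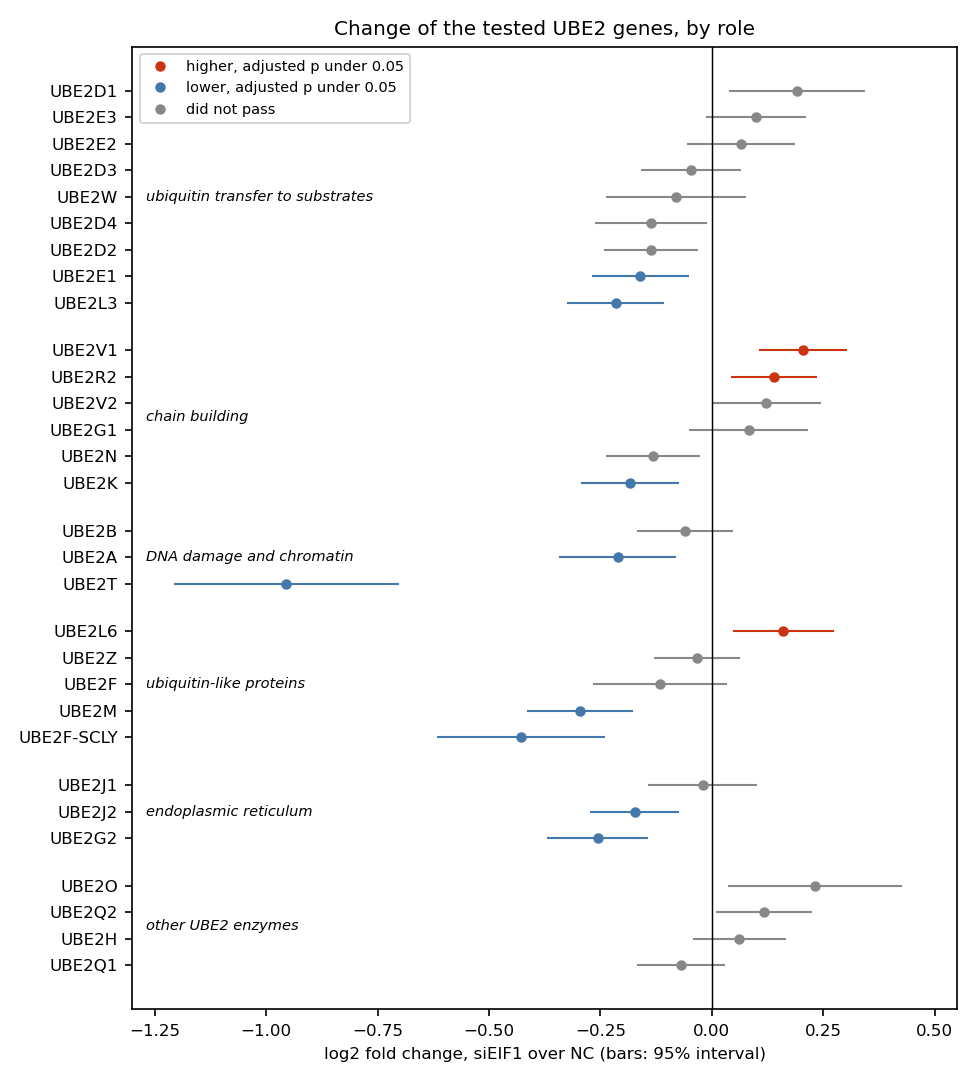
Log2 fold change of 30 of the 31 tested UBE2 genes, siEIF1 over NC, with its 95% interval from the edgeR fit, grouped by role, with genes at an adjusted p under 0.05 in red (higher) or blue (lower) and the others in grey. UBE2T at -0.95 stands apart, the other 8 lower genes shown lie between -0.43 and -0.16, and the 3 higher genes, UBE2R2, UBE2L6 and UBE2V1, lie between 0.14 and 0.20.

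Among the E2 enzymes of DNA damage and chromatin, 2 of 3 fell and none rose, with a median log2 fold change of -0.21. Beside this and the role counts below stand 10.4% of all genes tested called lower and 10.2% called higher. A role holds at most 9 tested genes, and no role was tested against these shares. UBE2T, the E2 that with the ligase FANCL marks the Fanconi anemia proteins FANCD2 and FANCI with a single ubiquitin, was at 8.73, 7.41 and 8.56 CPM in NC and at 4.31, 4.50 and 3.92 CPM in siEIF1. The groups were far apart, the siEIF1 mean being 51.5% of the NC mean (8.24 ± 0.717 against 4.24 ± 0.299 CPM, SD, n = 3). UBE2T fell by 0.95 on the log2 scale (SE 0.117, 95% interval -1.21 to -0.70, edgeR adjusted p = 8.89e-05), the lowest value among the tested members. It is also among the least abundant members, with 117 to 242 counts per library. Without NC replicate 2, which was the lowest NC library, its log2 fold change of -1.03 passed the fold limit as well.

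UBE2A and UBE2B are the human counterparts of yeast Rad6, which ubiquitylates the replication clamp PCNA and histone H2B with different E3 ligases. UBE2A was at 70.2, 64.4 and 62.9 CPM in NC and at 60.6, 56.1 and 53.8 CPM in siEIF1. The highest siEIF1 library was below the lowest NC library, and UBE2A fell by 0.21 (SE 0.0608, edgeR adjusted p = 0.0252). UBE2B was at 65.6, 69.0 and 68.9 CPM in NC and at 66.9, 65.3 and 62.99 CPM in siEIF1, with overlapping groups and a log2 fold change of -0.06 (95% interval -0.17 to 0.05, edgeR adjusted p = 0.441). Calls of UBE2A were lost without NC replicate 1 (adjusted p = 0.108), siEIF1 replicate 2 (0.0903) or siEIF1 replicate 3 (0.0628, all edgeR).

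The promoter of UBE2T is shown because of the size of its change. In the window from 250 bases before to 50 bases after the transcription start (RefSeq, GRCh38.p14), the letters TTTGAA, the core of the cell cycle homology region, were found at 153 bases before the start, and CCAAT was found at 124 and at 73 bases before the start. The search covered both strands. Capitals mark the motif in each 30-base run, which is given 5′ to 3′ on the strand of the gene.
UBE2T promoter, TTTGAA: cgcgcgctctcaTTTGAAtgcgtgagcgtt
UBE2T promoter, first CCAAT: tcagagcactggCCAATagagaggagcggt
UBE2T promoter, second CCAAT: gattactgtgggCCAATcacaatcttcccc

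These runs lie on the reverse strand at chr1:202342072-202342101, chr1:202342043-202342072 and chr1:202341992-202342021. Promoter sequences were matched for 27 of the 34 members (39 promoters). TTTGAA was in 4 of these 39 promoters, those of UBE2F, UBE2F-SCLY, UBE2T and UBE2U, against 15.2% of 35116 promoters in all, and CCAAT was in 11 of 39 against 34.6% of all. The windows of UBE2F and UBE2F-SCLY overlap. Their TTTGAA is the same site, in the run chr2:237966927-237966956, and their CCAAT sites are also shared, so that the promoters counted are not independent. The ETS letters CCGGAAG were in 6 of 39 member promoters, those of UBE2E3, UBE2F, UBE2G2, UBE2J2, UBE2N and UBE2V1, against 10.3% of all promoters. The NRF1 motif was in 1, that of UBE2K, against 1.24% of all. The variant TTCGAA, the E2F letters TTTGGCGC and TTTCCCGC and the CRE letters TGACGTCA were in 0 of the 39 promoters, against 1.45%, 0.652%, 1.63% and 1.85% of all promoters. A match is a description of the letters in the window and not a measured binding site.

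Among the 6 genes grouped under ubiquitin-like proteins, 3 fell and 1 rose, against 10.4% lower and 10.2% higher of all genes tested. Their median log2 fold change was -0.21. Of the 3 lower genes 1 is UBE2F-SCLY, the readthrough gene described below. UBE2M, which loads NEDD8 onto cullins, was at 65.5, 61.1 and 60.4 CPM in NC and at 52.8, 51.1 and 48.4 CPM in siEIF1. The groups did not overlap, and UBE2M fell by 0.30 (SE 0.0556, 95% interval -0.42 to -0.18, edgeR adjusted p = 0.00213).

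UBE2F is the second E2 of NEDD8, which serves the cullin CUL5. It was at 32.0, 29.4 and 28.3 CPM in NC and at 29.6, 26.3 and 26.8 CPM in siEIF1, with overlapping groups, a log2 fold change of -0.12 and an interval of -0.27 to 0.03 (edgeR adjusted p = 0.276). UBE2F-SCLY, listed as a readthrough of UBE2F into the neighbouring gene SCLY and described there as a candidate for nonsense-mediated decay, was at 14.0, 14.0 and 16.4 CPM in NC and at 10.7, 11.6 and 10.8 CPM in siEIF1. The siEIF1 libraries were the lower ones throughout, and UBE2F-SCLY fell by 0.43 (SE 0.0874, edgeR adjusted p = 0.0037). It shares exons and strand with UBE2F and SCLY, so that reads of the 3 genes could be split in the counting. SCLY itself had a mean of 91.5 counts and did not pass (edgeR adjusted p = 0.0934).

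UBE2L6 carries ISG15, a ubiquitin-like protein of the interferon response, and also ubiquitin. It was at 40.2, 39.4 and 38.9 CPM in NC and at 43.2, 45.3 and 43.9 CPM in siEIF1. The siEIF1 libraries were the higher ones without overlap, and UBE2L6 rose by 0.16 (SE 0.0526, 95% interval 0.05 to 0.27, edgeR adjusted p = 0.0468). This call was lost when any of the 6 libraries was left out, with adjusted p-values of 0.0608 to 0.158, and by DESeq2, where it was 0.112. UBE2Z, which takes ubiquitin or FAT10 from the E1 enzyme UBA6, was at 178, 183 and 184 CPM in NC and at 178, 174 and 180 CPM in siEIF1, with a log2 fold change of -0.03 (95% interval -0.13 to 0.06).

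Of the 3 E2 enzymes of the endoplasmic reticulum, which serve the removal of misfolded proteins, 2 fell and none rose, with a median of -0.17. Among all genes tested 10.4% were called lower and 10.2% higher. UBE2G2, the E2 of the ligases gp78 and HRD1, was at 104, 105 and 110 CPM in NC and at 86.6, 85.3 and 94.4 CPM in siEIF1. The groups were separate, and UBE2G2 fell by 0.26 (SE 0.0526, 95% interval -0.37 to -0.14, edgeR adjusted p = 0.00386). UBE2J2, which is anchored in the membrane, was at 77.4, 75.5 and 78.1 CPM in NC and at 68.6, 69.0 and 67.3 CPM in siEIF1. The libraries of a group lay close together, and UBE2J2 fell by 0.17 (SE 0.0466, edgeR adjusted p = 0.0181), with an adjusted p of 0.0838 without NC replicate 3. UBE2J1, the other membrane-anchored E2, was at 110 to 122 CPM in NC and at 106 to 118 CPM in siEIF1, with overlapping groups and an interval of -0.14 to 0.10.

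The chain builders, which extend a first ubiquitin into a chain of a given linkage, held 2 of the 3 higher members. Of 6 chain builders 2 were higher and 1 lower, against 10.2% and 10.4% of all genes tested, with a median log2 fold change of 0.10. UBE2V1, a cysteine-less variant that directs UBE2N to build chains through lysine 63 of ubiquitin, was at 145, 139 and 136 CPM in NC and at 161, 159 and 163 CPM in siEIF1. All siEIF1 libraries were above all NC libraries, with means of 161 ± 1.97 and 140 ± 4.60 CPM (SD, n = 3). UBE2V1 rose by 0.20 (SE 0.0457, 95% interval 0.11 to 0.30, edgeR adjusted p = 0.00645), and without NC replicate 3 its adjusted p was 0.0505. A readthrough gene on the same strand, PEDS1-UBE2V1, had a mean of 112 counts and did not pass (edgeR adjusted p = 0.771).

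UBE2N, the catalytic partner of UBE2V1 and UBE2V2, was at 79.1, 74.1 and 74.4 CPM in NC and at 70.4, 68.9 and 68.4 CPM in siEIF1. The siEIF1 libraries were the lower ones without overlap, but the log2 fold change of -0.13 (95% interval -0.24 to -0.03) did not pass (edgeR adjusted p = 0.0771). UBE2V2, which serves DNA damage tolerance with UBE2N, was at 46.9, 43.6 and 42.0 CPM in NC and at 48.8, 47.5 and 48.0 CPM in siEIF1, with a log2 fold change of 0.12 that did not pass either (edgeR adjusted p = 0.15).

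UBE2K, which extends chains through lysine 48, was at 89.1, 82.5 and 82.6 CPM in NC and at 76.4, 72.4 and 75.0 CPM in siEIF1. It fell by 0.18 (SE 0.0508, edgeR adjusted p = 0.0212), a call lost without NC replicate 1 (0.0824) or siEIF1 replicate 2 (0.0938). UBE2R2, a relative of CDC34 that works with cullin-RING ligases, was at 126, 126 and 127 CPM in NC and at 143, 137 and 138 CPM in siEIF1. The NC libraries were almost equal and below all siEIF1 libraries. UBE2R2 rose by 0.14 (SE 0.0444, edgeR adjusted p = 0.0401), with adjusted p-values of 0.0737 to 0.133 when NC replicate 1, 2 or 3 or siEIF1 replicate 1 or 2 was left out. UBE2G1, which extends chains on cullin-RING substrates, was at 41.2 to 46.3 CPM in NC and at 43.5 to 48.1 CPM in siEIF1, and the groups overlapped.

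Of the initiators, which pass ubiquitin to substrates with a broad set of E3 ligases, 9 were tested, 2 fell and none rose, with a median of -0.08. The shares of all genes tested were 10.4% lower and 10.2% higher. UBE2L3, the E2 of the RING-between-RING (RBR) ligases and of HECT ligases, was at 107, 100 and 98.7 CPM in NC and at 86.7, 90.8 and 86.4 CPM in siEIF1. The groups were separate, with means of 102 ± 4.63 and 88.0 ± 2.46 CPM (SD, n = 3), and UBE2L3 fell by 0.22 (SE 0.0503, 95% interval -0.32 to -0.11, edgeR adjusted p = 0.0084). UBE2E1 was at 125, 119 and 117 CPM in NC and at 110, 111 and 102 CPM in siEIF1, and it fell by 0.16 (SE 0.0505, edgeR adjusted p = 0.0387). That call was lost whichever of the 6 libraries was left out, with adjusted p-values of 0.0505 to 0.129. NKIRAS1, on the opposite strand at UBE2E1, was also lower (edgeR adjusted p = 0.0172), as was NUDT4 opposite UBE2N (0.0357). The libraries were strand-specific, but the strand setting of the counting is not given in the sources used here, and the part of these neighbours in the members' counts was not tested.

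UBE2D2 was at 144, 132 and 143 CPM in NC and at 129, 126 and 126 CPM in siEIF1, without overlap and with a log2 fold change of -0.14 (95% interval -0.24 to -0.03) that did not pass. Without NC replicate 2 its adjusted p was 0.0375. UBE2D3 was at 390, 370 and 350 CPM in NC and at 367, 358 and 350 CPM in siEIF1, with overlapping groups and an interval of -0.16 to 0.07. UBE2D1, another of the 4 UBE2D genes, was at 19.0, 21.7 and 21.7 CPM in NC and at 24.2, 23.2 and 23.8 CPM in siEIF1, a log2 fold change of 0.19 that did not pass (edgeR adjusted p = 0.075). UBE2D4, UBE2E2, UBE2E3 and UBE2W did not pass, with log2 fold changes of -0.14, 0.07, 0.10 and -0.08.

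Among the large or atypical members, 4 were tested and 0 passed in edgeR in either direction, against 20.6% of all genes tested. An unadjusted edgeR p under 0.05 with a positive log2 fold change was found for 2, a limit at which the share of all genes was not counted. By DESeq2, 0 of the 4 passed at an adjusted p under 0.05. UBE2O, a large enzyme that acts as E2 and E3 at once, was at 19.8, 19.8 and 21.9 CPM in NC and at 21.6, 23.0 and 27.7 CPM in siEIF1. The groups overlapped, with siEIF1 replicate 3 the highest and siEIF1 replicate 1 the lowest of its group. Its log2 fold change was 0.23 (SE 0.0904, edgeR adjusted p = 0.0908), and it was 0.31 without siEIF1 replicate 1 (adjusted p = 0.0255) and 0.12 without siEIF1 replicate 3 (adjusted p = 0.321). UBE2H, the E2 of the CTLH ligase, was at 0.06 (95% interval -0.04 to 0.17), and the log2 fold changes of UBE2Q1 and UBE2Q2 were -0.07 and 0.12.

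**Figure D3:**
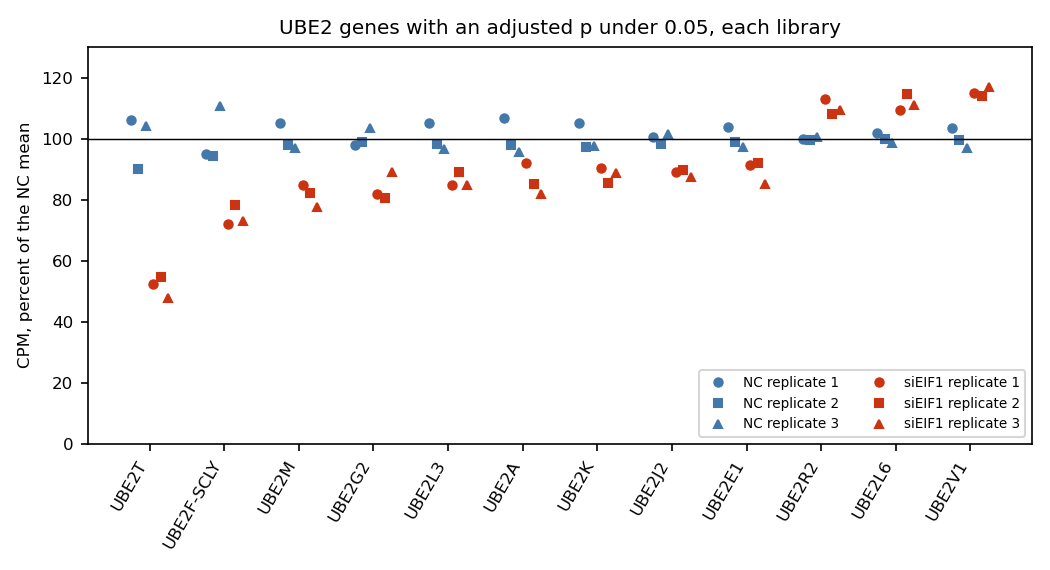
CPM of 12 of the 13 UBE2 genes with an adjusted p under 0.05 in each library, as a percent of the gene's NC mean, with NC in blue, siEIF1 in red and 1 marker shape per replicate number. In every one of these genes the siEIF1 and NC libraries do not overlap, and only the siEIF1 libraries of UBE2T come near 50% of the NC mean (51.5% on average).

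The number of higher members depended on single libraries. It was 1 without NC replicate 1, NC replicate 2 or siEIF1 replicate 2, and 0 without NC replicate 3. Within a group, the counts of siEIF1 replicates 1 and 3 differed the most. With siEIF1 replicate 3 left out, 2 members were higher (UBE2R2 and UBE2V1) and 8 lower, among them UBE2T, UBE2F-SCLY, UBE2M, UBE2G2, UBE2L3, UBE2K and UBE2J2. The share of all genes called was not counted for the fits with a library left out.

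Pairs of related E2 genes were compared within each library as the ratio of their FPKM values, which does not depend on the library's scaling. In 9 of 11 pairs the siEIF1 and NC libraries did not overlap. The share of other gene pairs without overlap was not counted. UBE2D3 and UBE2V2 recur among the pairs, so that the pairs are not independent. Each of these 9 pairs had p = 0.1 in a two-sided exact permutation test, the smallest p that 3 against 3 libraries allow, and 0.122 after Benjamini-Hochberg adjustment over the 11 pairs. No pair could therefore reach 0.05.

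The pair whose ratio fell the most was UBE2L3 over UBE2L6, at 1.44, 1.37 and 1.36 in NC and at 1.08, 1.08 and 1.06 in siEIF1, a log2 difference of -0.38. UBE2L3 was thus above UBE2L6 per length in every library, and by less in the siEIF1 libraries. UBE2G1 over UBE2G2 stood at 0.624, 0.693 and 0.618 in NC and at 0.872, 0.799 and 0.780 in siEIF1, a log2 difference of 0.34 in the other direction. UBE2E1 over UBE2E3 went from 1.33 to 1.11 on average (log2 difference -0.26).

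UBE2N over its partner UBE2V2 was at 1.87, 1.88 and 1.96 in NC and at 1.60, 1.61 and 1.58 in siEIF1, a log2 difference of -0.25. The ratio UBE2V1 over UBE2V2 was 4.33 in NC and 4.58 in siEIF1 (0.08). UBE2D1 over UBE2D3 was 0.162 and 0.191 (0.24), UBE2Q1 over UBE2Q2 was 1.74 and 1.53 (-0.19), UBE2M over UBE2F was 5.07 and 4.48 (-0.18), and UBE2A over UBE2B was 0.580 and 0.522 (-0.15). The groups overlapped for UBE2D2 over UBE2D3, at 1.07 and 1.002, and for UBE2J1 over UBE2J2, at 1.67 and 1.86, each with p = 0.2 in the exact permutation test.

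**Figure D4:**
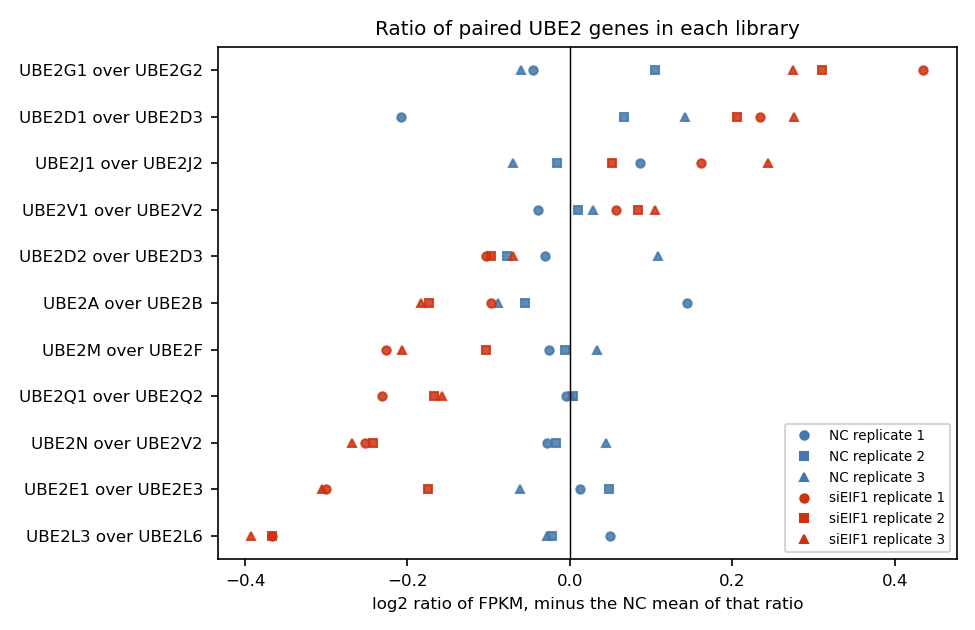
Log2 ratio of FPKM for 11 pairs of related UBE2 genes in each library, minus the NC mean of that pair, with NC in blue and siEIF1 in red and 1 marker shape per replicate number. The siEIF1 libraries lie apart from the NC libraries in 9 pairs, from UBE2L3 over UBE2L6 at -0.38 to UBE2G1 over UBE2G2 at 0.34, and overlap them for UBE2D2 over UBE2D3 and UBE2J1 over UBE2J2.

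The enzymes and substrates around the members were counted from lists of pathway genes. Together, 123 genes of these lists were tested, of which 4 rose and 24 fell, with UBE2C and UBE2S among the latter, and the median log2 fold change was -0.06. Leaving out NC replicate 1 left 15 lower genes and leaving out siEIF1 replicate 2 left 13, while 2 genes were higher in the absence of NC replicate 1 or NC replicate 3. No share of all genes was counted for these fits. With UBE2C and UBE2S set aside, 4 of 121 genes (3.31%) were higher and 22 (18.2%) lower, against 10.2% and 10.4% of all genes tested. Among genes within the UBE2 members' range of mean counts the shares were 13.5% and 13.3%. A share for genes matched to the counts of the pathway genes was not counted. Of the 28 called genes, UBE2C and UBE2S included, 15 kept an adjusted p under 0.05 whichever library was left out, and the losses of the others are given with them. UBE2C and UBE2S themselves, which build chains on the targets of the APC/C in mitosis, fell by 1.58 (13.8 ± 1.61 to 4.59 ± 0.233 CPM, SD, n = 3, edgeR adjusted p = 7.89e-07) and by 0.65 (50.1 ± 1.18 to 32.0 ± 0.525 CPM, edgeR adjusted p = 2.79e-06).

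The counts of the single lists stand beside 10.2% higher and 10.4% lower of all genes tested, 20.6% in either direction. Lists of at least 4 tested genes had 9.09% to 38.5% of them called. No list was tested against these shares. Of the 13 tested ubiquitin and ubiquitin-like proteins, 1 rose and 2 fell. SUMO2 rose by 0.19 (edgeR adjusted p = 0.0171), whereas ATG12, which is conjugated to ATG5 in autophagy, fell by 0.68 (edgeR adjusted p = 2.71e-06) and UFM1 fell by 0.20 (edgeR adjusted p = 0.0171). The polyubiquitin gene UBB did not pass, with a log2 fold change of -0.09. The call of SUMO2 was lost without NC replicate 1 or 3 or siEIF1 replicate 1 or 2 (adjusted p 0.0596 to 0.0706) and that of UFM1 without NC replicate 1 or 3 or siEIF1 replicate 2 (0.0556 to 0.0788). Of 10 E1 enzymes 2 fell, SAE1, a subunit of the SUMO E1, by 0.17 and UBA6 by 0.19 (edgeR adjusted p = 0.0261 and 0.0493). Both calls were lost without any 1 of the 3 NC libraries or without siEIF1 replicate 2, with adjusted p-values of 0.0601 to 0.123 for SAE1 and 0.103 to 0.203 for UBA6. Of 8 genes of the E2 family with other symbols, not all of them active enzymes, 2 fell, ATG3 by 0.19 and AKTIP by 0.20 (edgeR adjusted p = 0.0164 and 0.0404). ATG3 was lost without NC replicate 1 or 3 or siEIF1 replicate 1 or 2 (0.05 to 0.0674), and AKTIP without any 1 library other than NC replicate 3 (0.0665 to 0.144).

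Next to UBE2T, its ligase FANCL fell by 0.32 (34.4 ± 1.27 to 27.6 ± 2.04 CPM, SD, n = 3, edgeR adjusted p = 0.00447). Of the 4 deubiquitinases and cofactors that bind or oppose E2 enzymes 1 fell, USP1, which removes ubiquitin from PCNA and FANCD2, by 0.52 (edgeR adjusted p = 0.000317). Of the 10 E3 ligases and cofactors of UBE2A and UBE2B 3 fell and 0 rose, against 10.4% lower and 10.2% higher of all genes tested. The 3 lower genes were RAD18, the PCNA ligase, by 0.37, RNF20, the histone H2B ligase, by 0.29, and HLTF, which extends the chain on PCNA, by 0.26 (edgeR adjusted p = 0.00163, 0.00804 and 0.00823).

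Among the 11 SUMO ligases and proteases 1 fell, the protease SENP5 by 0.30 (edgeR adjusted p = 0.0136), a call lost without NC replicate 1 (0.0653) or siEIF1 replicate 2 (0.0597). This share of 9.09% was near the 10.4% of all genes called lower. Of the 13 neddylation partners 1 rose, DCUN1D3 by 0.35, and 1 fell, DCUN1D5 by 0.23, both of which help to load NEDD8 onto cullins (edgeR adjusted p = 0.009 and 0.0395). The call of DCUN1D5 was lost without NC replicate 1 or 3 or siEIF1 replicate 2 or 3 (0.0536 to 0.169). Of the 4 tested partners of the ISG15 pathway 1 fell, TRIM25, an E3 ligase of ISG15 and ubiquitin, by 0.53 (150 ± 5.41 to 104 ± 12.1 CPM, SD, n = 3, edgeR adjusted p = 0.00016). ISG15 did not pass, with a log2 fold change of -0.61 (edgeR adjusted p = 0.134).

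The 13 ligases and cofactors of the endoplasmic reticulum held 4 lower genes and 1 higher gene, against 10.4% and 10.2% of all genes tested. DERL3 fell by 1.16 at 70.5 counts on average, HERPUD1 fell by 0.38, SEL1L, the partner of HRD1, by 0.23 and ERLEC1 by 0.20 (edgeR adjusted p = 0.00046, 0.00023, 0.0138 and 0.026). SEL1L lost its call without NC replicate 1 (0.0635) or siEIF1 replicate 2 (0.076), and ERLEC1 without NC replicate 1 or 3 or siEIF1 replicate 2 (0.0674 to 0.124). OS9, a lectin of the same complex, rose by 0.25 (edgeR adjusted p = 0.00193). Of 14 RBR ligases and cofactors RNF217 rose by 0.20, and RBCK1 and RNF14 fell by 0.21 each (edgeR adjusted p = 0.0357, 0.01 and 0.0245). RNF217 lost its call without any 1 library other than siEIF1 replicate 2 (0.0782 to 0.109), RBCK1 without siEIF1 replicate 2 (0.0576), and RNF14 without NC replicate 1 or 3 or siEIF1 replicate 2 (0.0685 to 0.0989). Of 10 E3 ligases of lysine 63 chains 1 fell, BIRC2 by 0.29, and of 11 CTLH subunits and partners 1 fell, RMND5A by 0.34 (edgeR adjusted p = 0.00334 and 0.00267). These shares of 10% and 9.09% were near the 10.4% of all genes called lower.

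**Figure D5:**
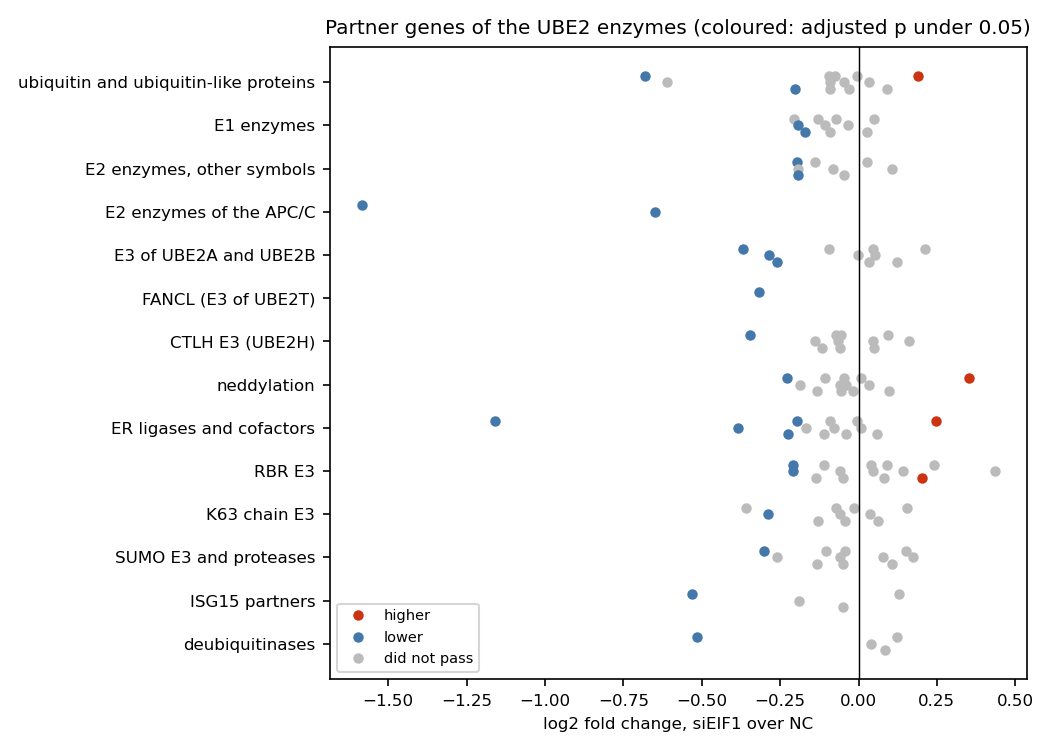
Log2 fold change, siEIF1 over NC, of each tested gene of the 14 pathway lists, with genes at an adjusted p under 0.05 (edgeR) in red (higher) or blue (lower) and the others in grey. The 2 E2 enzymes of the APC/C lie at -1.58 and -0.65 and DERL3 at -1.16, and the 4 higher genes lie between 0.19 and 0.35.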

How the data were processed

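RNA-seq was analysed for 3 NC and 3 siEIF1 libraries of ARPE-19 cells in 50 mM glucose, grouped by sample title. Per the study's methods, the authors trimmed reads with FASTX-Toolkit 0.0.13, dropped reads under 16 nt and mapped the remaining reads to GRCh38 by HISAT2, allowing 4 mismatches. The authors deposited counts of uniquely mapped reads per gene without normalization, and FPKM values, which leave out 343 genes. The counting program, its strand setting and the annotation release are not given in the sources used here, so counts of overlapping, antisense or near-identical genes are uncertain. All columns were assigned to a library and 0 were left unmatched.

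Genes were filtered with filterByExpr and tested by the quasi-likelihood method of edgeR 4.0.16 (R 4.3.3) after TMM normalization, across 16749 genes, with Benjamini-Hochberg adjustment. CPM values use the TMM-scaled library totals. Standard errors and 95% intervals of log2 fold changes come from the same fit. The test was checked on simulated counts. It recovered 30 of 50 genes changed by a fold of 1.25 and 32 of 50 changed by 0.80. At folds of 2 and 0.5 it recovered 50 of 50 and 46 of 50, with 6 false calls in all. Changes of a size below 1.25 were not simulated. Alternatives were other normalizations and count filters, the replicate number as a block, leaving out each library, DESeq2 1.42.0, and limma 3.58.1 on log2(FPKM + 1) and log2(FPKM + 0.1). Ratios of 2 genes used FPKM and an exact permutation test (scipy 1.17.1). At 26499929 to 31431479 counts per library, tested members averaged 178 to 10512 counts, with standard errors of 0.0444 to 0.117. These cover the spread between libraries only.

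Every member was accounted for, with full statistics for those with an adjusted p under 0.05, the 4 of highest FPKM and those on either side of the limit. Up to 4 called genes of each pathway list were named, and 5 of the endoplasmic reticulum list. The members, pathway lists and roles were chosen with earlier results of these data known, and the promoter motifs and the comparison with genes of like counts were added after the values were seen. Some genes that fall under these rules are counted but not reported here by name or in the plots of single genes. Coding stretches came from GENCODE 44 and promoters from RefSeq.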

Additional observations from a re-analysis of the deposited data

How the results depend on the processing

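EIF1 remained lower in every fit, with a log2 fold change of -3.61 to -3.56 when a library was left out. The number of lower members was 7 to 10 over the alternatives other than the block, and 7 with limma on either FPKM scale. The number of higher members was 1 with DESeq2, 1 with limma on log2(FPKM + 1), 0 with limma on log2(FPKM + 0.1) and 0 to 2 when a library was left out. Members past both limits were 0 in the lower direction, or 0 to 1 when a library was left out. The called pathway genes were 1 higher and 10 lower with limma on either FPKM scale, and 2 to 5 higher and 13 to 24 lower when a library was left out. The share of all genes called was counted for the main fit only, so that the counts of the other fits have no background of their own. The cause of these differences was not tested. Of the 13 called members 5 kept their call in all 14 alternatives, UBE2T, UBE2F-SCLY, UBE2M and UBE2L3 among them. UBE2G2 lost its call with limma on both scales, as did UBE2A, UBE2K and UBE2V1, and UBE2J2 lost it without NC replicate 3. UBE2D2, UBE2N and UBE2O, which had not passed, passed in at least 1 alternative. The log2 fold change of UBE2J1, -0.02, ran from -0.0569 to 0.0269 when a library was left out, turning positive without NC replicate 1 (0.0269) and without siEIF1 replicate 2 (0.021). Pairs of genes without overlap were 9, or 9 to 10 when a library was left out.

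The groups share replicate numbers, but the correlation of deviations between same-numbered libraries was 0.149, 0.0946 and 0.128, so not every pair was above 0.1 and the numbers were taken as names, although each library correlated best with its own number. With the replicate number as a block, 4 members were higher and 12 lower, 4 pathway genes were higher and 28 lower, and 9 pairs did not overlap. No share of all genes was counted for that fit.

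Libraries of this depth left UBE2QL1, UBE2L5 and UBE2U without a test. With 3 libraries per group, the smallest log2 change called for a member was 0.14, and the pair ratios could not reach a p under 0.1. Each of the 17 pseudogenes of the family in the table held at most 29 counts in a library. Together they held 36 to 79 counts per library.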
